A study of Mus musculus with 51 samples.

Results

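The genes described here are 36 genes of the contractile actin cytoskeleton and of 2 transcriptional programmes tied to it, those of serum response factor (SRF) and of the coactivator YAP, in mouse stromal lines that do or do not support hematopoietic stem and progenitor cells in culture. They were taken by symbol from the probe sets of Affymetrix mouse gene 1.0 ST arrays that name exactly 1 gene. All 36 were measured, among 19938 genes in all, and 1 of them, Myh9, had several probe sets, of which the one with the highest mean was used. By role they fell into 14 smooth muscle filament genes (Acta2, Actg2, Tagln, Cnn1, Myl9, Mylk, Myh11, Tpm1, Tpm2, Cald1, Lmod1, Des, Smtn and Synpo2), 12 adhesion and actin-crosslinking genes (Tagln2, Cnn2, Myh9, Vcl, Flna, Actn1, Zyx, Csrp1, Pdlim5, Pdlim7, Fhl1 and Fhl2), Srf with its coactivator gene Myocd, and 8 YAP target genes (Ccn1, Ccn2, Ankrd1, Amotl2, Lats2, Ajuba, Axl and Nuak2).

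The 51 arrays formed 17 groups of 3. In confluent culture there were 13 lines. From adult bone marrow (BM) came 14F1-1 (BALB/c, supportive), BMC9 (H2ts6, supportive) and BMC10 (H2ts6, less supportive). From C57BL/6 fetal liver (FL) at embryonic day 14.5 came 2012 and AFT024 (supportive) and AFT011, BFC012 and BFC (non-supportive). From the aorta-gonad-mesonephros region (AGM) of (CBAxC57BL/10)F1 embryos at day 11 came AM14-1C4, AM30-3F4 and UG26.1B6 (supportive) and UG26.3B5 (less supportive). OP9 (supportive) came from (C57BL/6xC3H)F2-op/op fetal calvaria. The other 12 arrays held AFT024 and BFC012 stroma grown for 4 days with or without KLS cells (c-Kit+Sca1+Lin-, the bone marrow fraction enriched for stem and progenitor cells) and then sorted for absence of CD45. The labels name no clone for BFC. Counting BFC apart from BFC012 is an assumption, on which the count of 13 lines rests. Each line was treated as 1 clone, so a difference between a pair of lines is read as a difference between clones. Nothing in the labels says that the 3 arrays of a group came from separate cultures. The p-values therefore measure only how much these samples vary, which may be technical variation.

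SRF is a transcription factor that binds the CArG box in the promoters of actin, myosin light chain and other cytoskeletal genes. Its activity follows actin polymerisation through the myocardin-related coactivators, and in smooth muscle through myocardin, the product of Myocd. YAP has no DNA-binding domain of its own and reaches its targets through the TEAD factors. It enters the nucleus of spread cells under tension and is held in the cytoplasm by the Hippo kinases, among them the product of its own target Lats2. Cultured marrow and fetal liver stroma has long been known to contain cells with smooth muscle actin.

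The promoter letters of the members are shown first, because SRF binds the CArG box and the TEAD factors, through which YAP acts, bind the TEAD hexamer. RefSeq promoter windows (GRCm38.p6), which run from 250 bases before to 50 bases from a transcript's start, were at hand for 30 members. A CArG box of 10 bases lay in a window of 6 of these 30 members (20%), against 488 of 27025 genes with a window (1.81%). The members were Srf, Myl9, Vcl, Cnn2, Fhl1 and Fhl2, and the box is in capitals in the stretches of at most 50 bases below, written 5′ to 3′ on the strand of the gene.
Srf, chr17:46556215-46556244 (-): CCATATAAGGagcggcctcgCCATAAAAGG
Myl9, chr2:156775283-156775332 (+): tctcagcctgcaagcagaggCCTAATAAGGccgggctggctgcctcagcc
Vcl, chr14:20929151-20929200 (+): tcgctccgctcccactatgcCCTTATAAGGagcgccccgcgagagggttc
Cnn2, chr10:79988524-79988573 (+): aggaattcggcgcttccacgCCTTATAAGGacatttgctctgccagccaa
Fhl1, chrX:56779571-56779600 (+): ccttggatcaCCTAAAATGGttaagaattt
Fhl2, chr1:43163973-43164002 (-): gcgcgtgtgtCCTTATATGGtcaaatgact

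Srf, whose product is the factor that binds this box, had 2 boxes, and Vcl and Cnn2 had the same 10 letters. A second start of Fhl2 had a further box, not printed. The TEAD hexamer, searched as GGAATG on either strand (GGAATG or CATTCC), lay in a window of 15 of the 30 members (50%) and of 4481 of the 27025 genes (16.58%). It was found for 6 of the 6 YAP targets that had a window. For none of them was a CArG box found, but only 1.81% of all genes with a window had one. Absence of the box in these 6 therefore does not set them apart. Both motifs occurred among the other members. Of 11 smooth muscle filament genes with a window 6 had the hexamer and 1 the box, and of 12 adhesion genes 3 and 4. In the windows of the members the hexamer and the box overlapped 0 times. The stretches of 5 YAP targets and of Acta2 follow, with the hexamer in capitals; in Lats2 it lay after the start and is not printed.
Ankrd1, chr19:36119942-36120074 (-): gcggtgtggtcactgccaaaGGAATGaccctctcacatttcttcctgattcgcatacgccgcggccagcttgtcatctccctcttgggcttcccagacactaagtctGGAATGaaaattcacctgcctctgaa
Ccn1, chr3:145650071-145650100 (-): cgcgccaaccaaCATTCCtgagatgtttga
Ajuba, chr14:54577800-54577867 (-): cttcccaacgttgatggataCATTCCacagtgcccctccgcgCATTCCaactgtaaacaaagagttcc
Amotl2, chr9:102717727-102717756 (+): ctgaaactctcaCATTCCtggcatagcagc
Axl, chr7:25788941-25788983 (-): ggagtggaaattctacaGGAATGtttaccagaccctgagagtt
Acta2, chr19:34255502-34255531 (-): gagcagaacagaGGAATGcagtggaagaga

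Ankrd1 and Ajuba each carried 2 hexamers. These matches describe the letters of these windows only. Other starts, distant enhancers and boxes with a mismatch were not searched, and the 6 members Actg2, Tagln, Myh11, Myocd, Ccn2 and Nuak2 had no window at hand.

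Values are log2 signals per probe set, so a difference of 1 is a 2-fold change, and levels can be set side by side only within each of 4 sets of 18, 6, 12 and 15 arrays that had been normalized together. The lowest correlation between arrays of a group was 0.991, 0.994, 0.972 and 0.994 in the 4 sets. In confluent culture 34 arrays were labelled as grown at 33 °C and 5 at 37 °C, namely the 3 of 14F1-1 and replicates 1 and 2 of OP9, so line and temperature cannot be told apart for 14F1-1. In these bulk samples, fewer cells of a type and less RNA per cell cannot be told apart. A gene was called where limma's adjusted p, over all 19938 genes, was under 0.05.

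The 36 genes differed widely between lines. Among the 6 lines of the set of 18 arrays 31 of 36 differed (moderated F test; 55.4% of all genes did), and among the 5 lines of the set of 15 arrays 34 of 36 did (56.9% of all genes). The distance between the highest and the lowest line had a median of 0.78 over the members in the first of these sets, against 0.38 over all genes, and of 1.01 against 0.41 in the other. Between OP9 and BFC it was 0.79 against 0.16, and 19 of the 36 members lay above the 90th percentile of all genes, 0.77. Shares and medians over all genes include dim genes, whereas many members were bright. Without genes whose highest line mean lay under the set's median, larger shares were called. These were 5954 of 10982 genes for AM14-1C4 minus AM30-3F4, 5202 of 10881 for confluent AFT024 minus BFC012 and 6779 of 10982 for 14F1-1 minus 2012. The part of brightness in the members' counts was not tested.

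**Figure D1:**
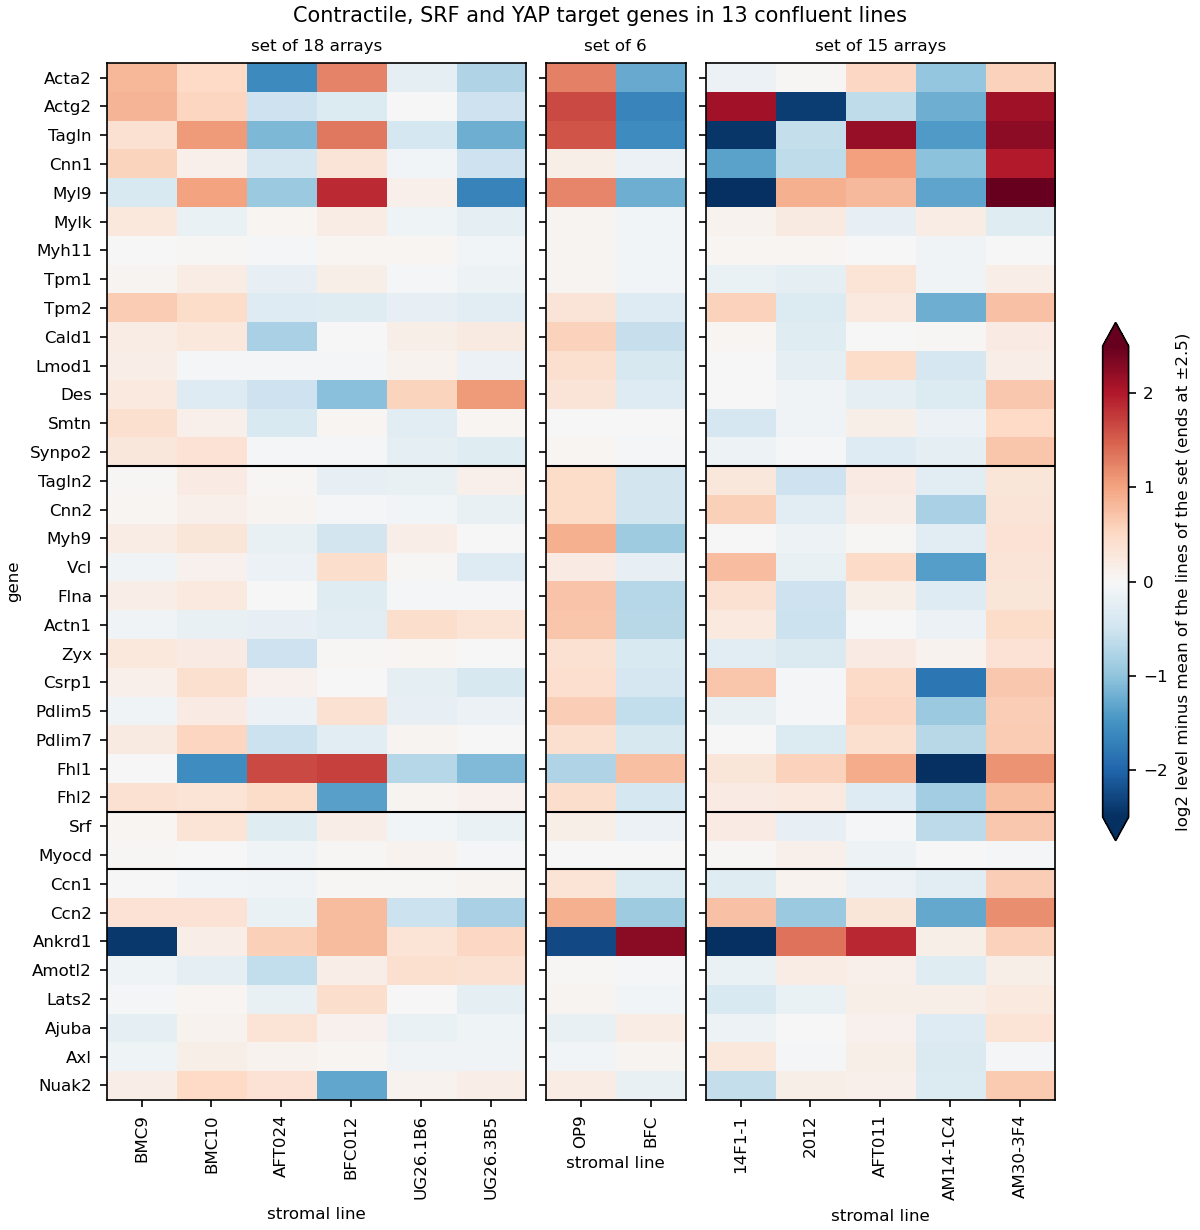
Level of each of the 36 genes (rows; black lines part smooth muscle filament genes, adhesion genes, Srf with Myocd, and YAP targets) in 13 confluent lines (columns), as the mean of 3 arrays minus the mean of the lines normalized together, in log2 units, with colours ending at ±2.5. AM30-3F4 was highest of its 5 lines for 24 of 36 genes and AM14-1C4 lowest for 18.

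The widest split lay between the supportive AGM lines AM14-1C4 and AM30-3F4. In AM14-1C4, 30 of the 36 genes were lower than in AM30-3F4, 1 was higher and 5 did not pass; over all genes 15.8% were lower, 15.9% higher and 31.6% either. The median difference over the members was -0.91, against 0.01 over all genes. All 12 adhesion and actin-crosslinking genes fell, with 11 of 14 smooth muscle filament genes, Srf and 6 of 8 YAP targets. In 32 of 36 genes every array of AM14-1C4 lay below every array of AM30-3F4, which held for 24.4% of all genes.

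Fhl1, a LIM-domain protein of the sarcomere and of focal adhesions, measured 8.08, 7.98 and 9.51 in AM14-1C4, against 12.60, 12.58 and 12.51 in AM30-3F4. Myl9, a regulatory light chain of smooth muscle and nonmuscle myosin, measured 8.13, 8.39 and 9.29 in AM14-1C4, against 12.52, 12.68 and 12.47 in AM30-3F4. In both genes replicate 3 of AM14-1C4 was the highest of its group, and the groups did not overlap. The differences were -4.04 ± 0.23 (SE; adjusted p = 6.42e-16) for Fhl1 and -3.95 ± 0.31 (adjusted p = 1.8e-12) for Myl9.

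Tagln, the actin-bundling protein transgelin (SM22), measured 7.90, 7.90 and 8.80 in AM14-1C4, against 11.95, 11.73 and 11.86 in AM30-3F4. Actg2, the enteric smooth muscle actin, measured 8.08, 8.16 and 8.75 in AM14-1C4, against 11.68, 11.64 and 11.69 in AM30-3F4. Cnn1, calponin, an actin-binding inhibitor of myosin ATPase, measured 6.73, 7.09 and 7.31 in AM14-1C4, against 10.21, 9.94 and 9.98 in AM30-3F4. None of the 3 genes overlapped between the lines, and the differences were -3.65 for Tagln, -3.34 for Actg2 and -3.0 for Cnn1.

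Csrp1, a LIM protein that binds alpha-actinin and zyxin, fell by 2.48 on the log2 scale, and the tropomyosin gene Tpm2 by 1.96. Acta2, the alpha smooth muscle actin, averaged 11.83 ± 0.191 in AM14-1C4 and 13.36 ± 0.0106 in AM30-3F4 (SD, n = 3 each). Its difference of -1.53 (adjusted p = 2.27e-05) was smaller than that of Actg2. Mylk, the kinase of the myosin light chain, went the other way, with 7.51, 7.73 and 7.57 in AM14-1C4, against 7.05, 7.16 and 7.13 in AM30-3F4 (difference 0.49, adjusted p = 2.08e-05). The filament genes that did not pass were Myh11, the smooth muscle myosin heavy chain (-0.09), and Cald1, caldesmon (-0.17).

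Srf measured 9.45, 9.33 and 9.33 in AM14-1C4, against 10.69, 10.72 and 10.70 in AM30-3F4. That is a difference of -1.33 ± 0.13 (adjusted p = 1.62e-10). Myocd was level, at 5.71 ± 0.0826 in AM14-1C4 and 5.70 ± 0.0605 in AM30-3F4 (SD, n = 3 each; adjusted p = 0.961).

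Of the YAP targets, Ccn2 (CTGF), a secreted matricellular protein, moved most. It measured 10.92, 10.75 and 11.50 in AM14-1C4, against 13.55, 13.48 and 13.50 in AM30-3F4. The groups did not overlap, and replicate 3 of AM14-1C4 was again the highest of its group. The difference was -2.45 ± 0.32 (adjusted p = 1.03e-07). The kinase Nuak2 fell by 0.99, Ccn1 (CYR61), a close relative of Ccn2, by 0.88, the LIM protein Ajuba by 0.65, the YAP-binding Amotl2 by 0.43 and the receptor tyrosine kinase Axl by 0.35. Ankrd1, a nuclear ankyrin-repeat protein, was at -0.43 (adjusted p = 0.065), and Lats2 at -0.09 (adjusted p = 0.715).

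**Figure D2:**
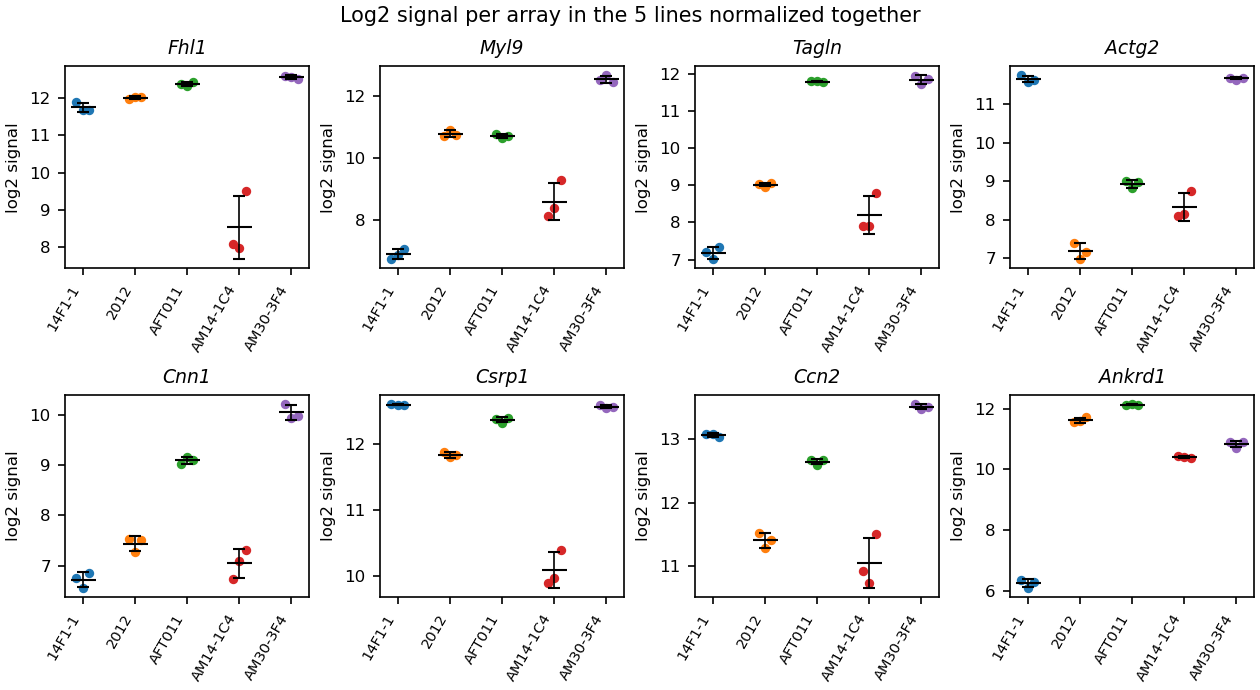
Log2 signal of 8 genes in each array of the 5 lines normalized together (points; black bars give the mean and SD of 3 arrays). AM14-1C4 lies below AM30-3F4 in every panel, while 14F1-1 stands high for Actg2 and low for Myl9, Tagln and Ankrd1.

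Upstream regulators, further YAP targets and serum-response immediate early genes moved less uniformly in the same pair. Of 14 measured regulators of SRF, 8 were lower in AM14-1C4 and 1 higher. Among them the coactivator gene Mrtfa fell by 0.63, and the phosphatase subunit gene Ppp1r12a by 0.61, while Limk1, the kinase that inactivates cofilin, rose by 0.54. Of 17 measured Hippo pathway genes 6 were lower and 3 higher, with the largest differences in the TEAD cofactor gene Vgll3 (-1.68), Wwc1 (-1.36) and Tead1 (-0.92). A further list of 15 YAP targets had 5 lower and 3 higher, with a median difference of 0.14. The 3 higher ones were Igfbp3 (2.61), Nt5e (2.56) and Foxf2 (1.62), and the 5 lower ones were Tgfb2 (-1.46), Crim1 (-0.92), Rbms3 (-0.70), Arhgef17 (-0.39) and Dock5 (-0.37). Of 12 serum-response immediate early genes 3 were higher and 2 lower, led by Nr4a1 (1.57) and Egr1 (1.29).

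Markers of other cell types also differed. Of 8 stromal fibroblast markers 4 were higher and 2 lower in AM14-1C4, with Dcn at 3.18, Col1a2 at 1.76 and Pdgfra at 1.66. The list's mean level ran over 9.79 to 9.83 in AM14-1C4 and over 9.01 to 9.03 in AM30-3F4. Of 9 hematopoietic markers 1 passed, Lyz2 (4.00 higher in AM14-1C4). The list's mean level, which includes Lyz2, was 6.16 to 6.22 in AM14-1C4, against 5.74 to 5.78 in AM30-3F4. The list's median deviation from the mean of the lines of the set was level, at 0.014 in AM14-1C4 and 0.013 in AM30-3F4. Of 7 proliferation markers 4 were lower and 1 higher (mean level 11.01 to 11.06 in AM14-1C4, 11.27 to 11.28 in AM30-3F4). Of 8 pericyte markers 3 were higher and 1 lower (8.04 to 8.06 in AM14-1C4, 7.55 to 7.58 in AM30-3F4), led by Anpep (1.67), and of 12 skeletal and cardiac muscle markers 4 were lower (6.93 to 6.97 in AM14-1C4, 7.19 to 7.23 in AM30-3F4), led by Tnnt2 (-1.88). The part of these markers in the result was not tested.

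The supportive line OP9 was set against the non-supportive FL line BFC. In OP9 21 of 36 genes were higher than in BFC and 2 were lower, while 17.5% of all genes were higher, 16.9% lower and 34.4% either. The median was 0.67 over the members, against 0.01 over all genes. Of the adhesion genes 11 of 12 rose, and of the filament genes 8 of 14. In 27 members every array of OP9 lay above every array of BFC (23% of all genes).

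Actg2 measured 8.17, 8.18 and 8.26 in OP9, against 4.82, 4.93 and 5.01 in BFC. Tagln measured 8.92, 9.11 and 9.29 in OP9, against 5.95, 6.04 and 5.84 in BFC. Neither gene overlapped between the lines, and their differences were 3.28 (adjusted p = 1.19e-19) and 3.16 (adjusted p = 1e-11). Acta2 measured 11.44, 11.37 and 11.50 in OP9, against 8.84, 8.99 and 8.89 in BFC. Myl9 measured 10.08, 10.15 and 10.21 in OP9, against 7.70, 7.70 and 7.77 in BFC. Neither gene overlapped, with differences of 2.53 and 2.42. The nonmuscle myosin heavy chain gene Myh9 (1.79), the actin crosslinkers Flna (1.43) and Actn1 (1.38), and the PDZ-LIM gene Pdlim5 (1.23) rose as well, whereas Cnn1 (0.29), Srf (0.30) and Myh11 (0.14) did not pass.

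The YAP targets split. Ccn2 measured 8.87, 8.80 and 9.03 in OP9, against 7.25, 7.06 and 7.02 in BFC, a difference of 1.79 (adjusted p = 2.1e-05), and Ccn1 rose by 0.68. Ankrd1 measured 4.56, 4.81 and 4.76 in OP9, against 9.28, 9.18 and 9.24 in BFC. At -4.52 ± 0.18 (adjusted p = 1.81e-20) it had the largest difference of the 36 genes in this pair, against the direction of the list. The other gene that fell was Fhl1 (-1.51). Axl, Ajuba, Amotl2, Lats2 and Nuak2 lay between -0.36 and 0.35 and did not pass.

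Of the SRF regulators 6 of 14 were higher in OP9 and 1 lower, with Rhoc at 0.69. The Hippo list had 5 of 17 higher and 7 lower, led by Vgll3 (2.39), Wwc1 (-1.72) and the kinase gene Stk4 (-1.22). Of the other YAP targets 8 of 15 were higher and 3 lower, led by Ccdc80 (2.83). Of 7 proliferation markers 6 were lower in OP9 (mean level 8.25 to 8.54 in OP9, 8.88 to 8.96 in BFC), and of 8 mesothelial markers 4 were lower (4.84 to 4.93 in OP9, 5.79 to 5.85 in BFC), led by Upk1b (-3.70). Stromal fibroblast markers were higher in 5 of 8 and lower in 1 (6.96 to 7.05 in OP9, 6.19 to 6.26 in BFC), and pericyte markers in 4 of 8 and 1 (5.63 to 5.75 in OP9, 5.23 to 5.36 in BFC). The part of these markers in the result was not tested. Replicate 3 of OP9 was grown at 33 °C like BFC, and the other OP9 arrays at 37 °C. Replicate 3 had 8.26 for Actg2, 9.29 for Tagln and 4.76 for Ankrd1. A single array cannot separate temperature from replicate, and the part of temperature in the result was not tested. Tissue and strain cannot be told apart from the line.

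In the FL pair 2012 and AFT011 the supportive line was the lower one. In 2012, 20 of 36 genes were lower than in AFT011 and 4 were higher, with 14.1% of all genes lower, 13.4% higher and 27.6% either. The median over the members was -0.39, against 0.07 over all genes. Of the adhesion genes 9 of 12 fell, of the filament genes 8 of 14 and of the YAP targets 3 of 8.

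Tagln measured 9.04, 8.96 and 9.05 in 2012, against 11.80, 11.80 and 11.78 in AFT011. Actg2 measured 7.39, 6.98 and 7.16 in 2012, against 9.0, 8.81 and 8.97 in AFT011. Cnn1 measured 7.53, 7.27 and 7.51 in 2012, against 9.02, 9.16 and 9.10 in AFT011. The lines did not overlap in any of these, and AFT011 was the higher line in each.

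Ccn2 measured 11.52, 11.29 and 11.42 in 2012, against 12.67, 12.60 and 12.68 in AFT011, again without overlap (difference -1.24, adjusted p = 0.00311). Not every filament gene moved. Acta2 averaged 12.82 ± 0.0171 in 2012 and 13.31 ± 0.0561 in AFT011 (adjusted p = 0.175), and Myl9 averaged 10.80 ± 0.111 in 2012 and 10.72 ± 0.0705 in AFT011 (adjusted p = 0.877; SD, n = 3 each). The genes higher in 2012 were Fhl2 (0.57), Mylk (0.42), Synpo2 (0.29) and Myocd (0.25, with overlapping arrays). Synpo2 and Myocd were dim, with means in 2012 at percentiles 39.4 and 22.3 of all genes. Myocd did not differ among the lines of its set (moderated F test, adjusted p = 0.222). The count of 4 was 2 without replicate 1 of 2012 and 2 without replicate 3 of AFT011.

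Mesothelial markers differed strongly in this pair. Of 8, 5 were lower in 2012 and 1 higher, with Upk1b at -5.81, Upk3b at -4.03 and Wt1 at -3.16, and the list's mean level was 7.04 to 7.32 in 2012, against 9.16 to 9.19 in AFT011. Of 8 stromal fibroblast markers 4 were higher, led by Col1a2 (4.41). Their part in the result was not tested.

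The supportive lines themselves did not share a level. 14F1-1 had 13 of 36 genes higher and 7 lower than 2012 (18.1% of all genes higher, 18.5% lower, 36.6% either). Actg2 measured 11.75, 11.59 and 11.63 in 14F1-1, against 7.39, 6.98 and 7.16 in 2012, a difference of 4.48 ± 0.14 (adjusted p = 1.66e-23). Ankrd1 measured 6.37, 6.09 and 6.30 in 14F1-1, against 11.54, 11.58 and 11.71 in 2012. Myl9 measured 6.76, 6.88 and 7.09 in 14F1-1, against 10.72, 10.93 and 10.76 in 2012. None of these overlapped, and the filament genes Actg2 and Myl9 moved in opposite directions.

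The differences were -5.36 for Ankrd1 and -3.89 for Myl9. Tagln fell by 1.83 in 14F1-1, the adhesion genes Vcl (vinculin, 0.97), Flna (0.91), Cnn2 (0.86), Tagln2 (0.80), Actn1 (0.78), Csrp1 (0.75) and Pdlim7 (0.33) rose, and Acta2 was at -0.18 (adjusted p = 0.689). Of the Hippo genes 10 of 17 were lower in 14F1-1 and 4 higher, with Wwc1 at -2.67, Tead2 at -2.35 and Amot at -1.23. Of the SRF regulators 9 of 14 were higher and 1 lower, led by the GTPase gene Rhob (1.40). With only the arrays of this pair in the fit, 11 members were lower. Of 8 stromal fibroblast markers 3 were lower and 1 higher (8.61 to 8.62 in 14F1-1, 9.67 to 9.89 in 2012), led by Col1a2 (-4.11), and of 7 proliferation markers 5 were lower and 1 higher (10.99 to 11.05 in 14F1-1, 11.14 to 11.27 in 2012). Their part in the result was not tested.

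Against the mean of both AM lines, 2012 had 5 genes higher and 14 lower (15.3%, 16.2% and, either way, 31.5% of all genes). Every array of 2012 lay above the arrays of both AM lines in 1 member (12.1% of all genes) and below them in 8 (11.5% of all genes). Actg2 was lower in 2012 by that measure (-2.82, adjusted p = 2.74e-19), and Ankrd1 was higher (1.00, adjusted p = 2.95e-06).

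**Figure D3:**
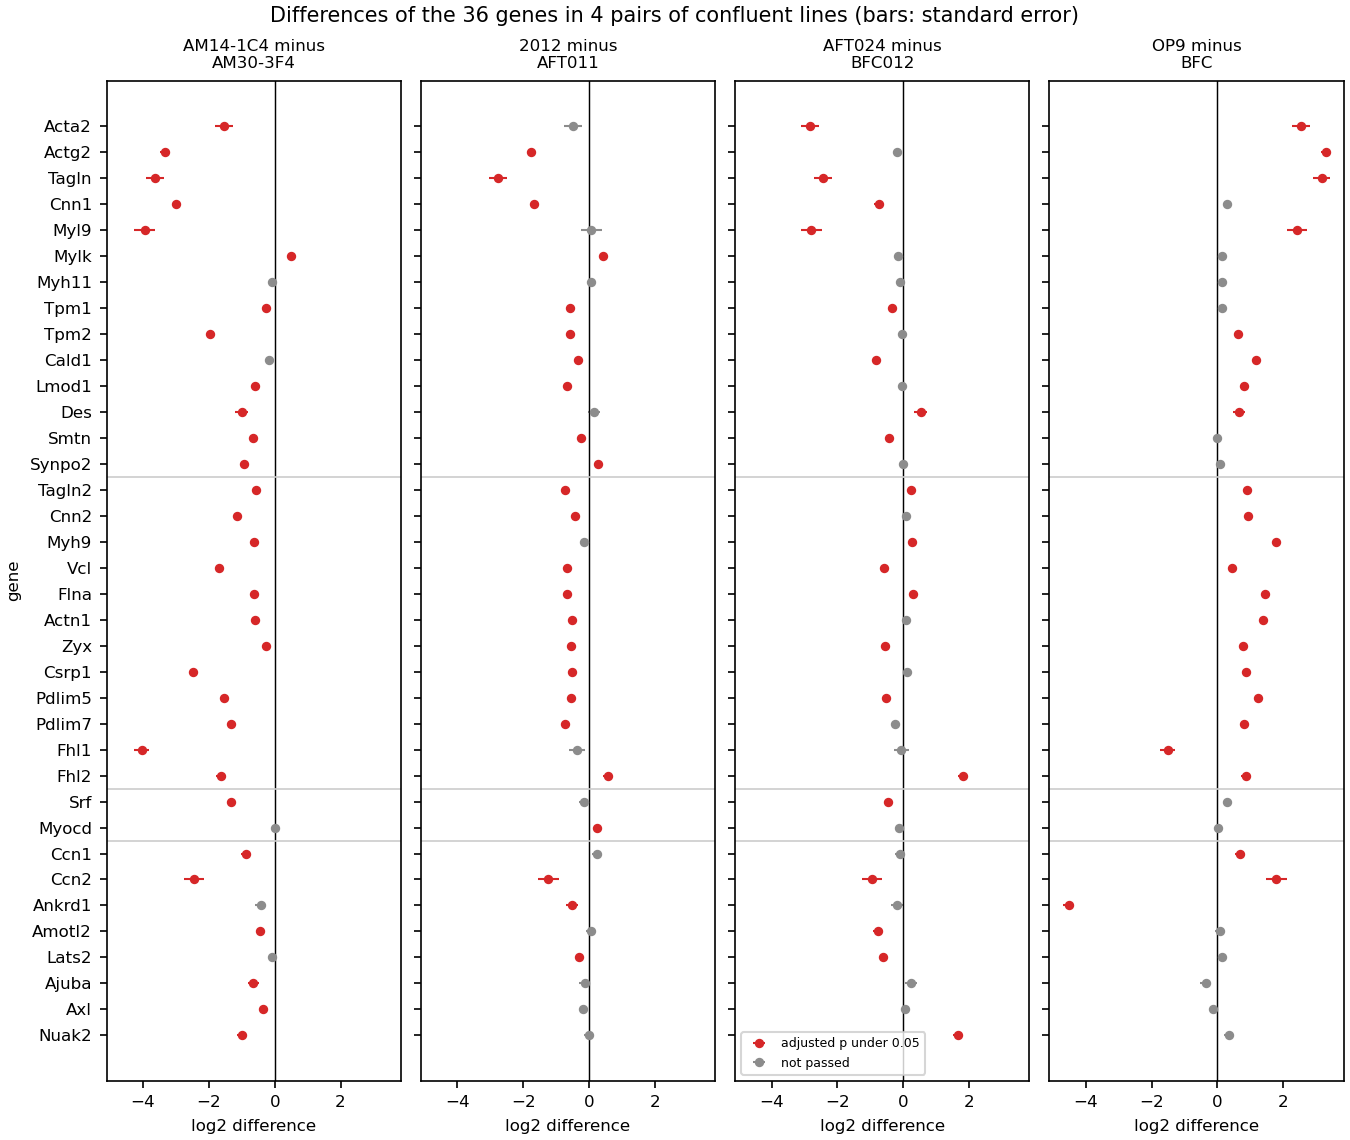
Difference of each of the 36 genes in 4 pairs of confluent lines, first-named minus second-named line, in log2 units (points; bars are standard errors; red, adjusted p under 0.05; grey lines part the role groups). Most genes lie left of 0 in AM14-1C4 and in 2012 and right of 0 in OP9.

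The FL lines AFT024 and BFC012 were measured in confluent culture and again as sorted cells, on separate arrays. In confluent culture 14 of 36 genes were lower in AFT024, the supportive line, and 6 were higher (12.9% of all genes lower, 15.6% higher, 28.5% either), with a median of -0.13 over the members and -0.02 over all genes. Of the filament genes 7 of 14 fell. The adhesion genes were mixed, with 3 lower and 4 higher.

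Acta2 measured 8.78, 9.24 and 10.60 in AFT024, against 12.33, 12.56 and 12.24 in BFC012. Myl9 measured 6.70, 7.01 and 8.06 in AFT024, against 9.89, 10.48 and 9.75 in BFC012. Tagln measured 6.40, 6.29 and 7.25 in AFT024, against 9.21, 9.24 and 8.79 in BFC012. Replicate 3 of AFT024 was the highest of its group in all 3 genes and still lay below every BFC012 array.

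The differences were -2.83 ± 0.27 (adjusted p = 2.43e-10) for Acta2, -2.79 ± 0.31 for Myl9 and -2.44 ± 0.27 for Tagln. Fhl2, a LIM-domain cofactor, measured 10.50, 10.52 and 10.68 in AFT024, against 8.74, 8.84 and 8.65 in BFC012. Nuak2 measured 8.55, 8.63 and 8.84 in AFT024, against 7.09, 6.84 and 7.13 in BFC012. These genes ran against the filament genes without overlap (1.82, adjusted p = 2.42e-12, and 1.65, adjusted p = 2.86e-11), whereas Ccn2 was lower in AFT024 (-0.95, adjusted p = 0.0214). The call of Ccn2 was lost without replicate 1 or 2 of AFT024 (adjusted p = 0.0803 and 0.0979) and without replicate 2 or 3 of BFC012 (0.074 and 0.0506).

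Mesothelial markers again stood lower in the supportive line, with 5 of 8 lower and 2 higher in AFT024 (Upk1b -5.19, Upk3b -4.79, Msln 2.3). Their mean level was 7.05 to 7.18 in AFT024, against 8.41 to 8.71 in BFC012. Of 8 stromal fibroblast markers 4 were higher and 2 lower (8.81 to 9.17 in AFT024, 8.28 to 8.56 in BFC012). Of the Hippo genes 7 of 17 were higher and 6 lower, led by Amot (1.10), and of the SRF regulators 4 of 14 were higher and 2 lower, led by Limk1 (1.03). Their part in the members' differences was not tested.

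**Figure D4:**
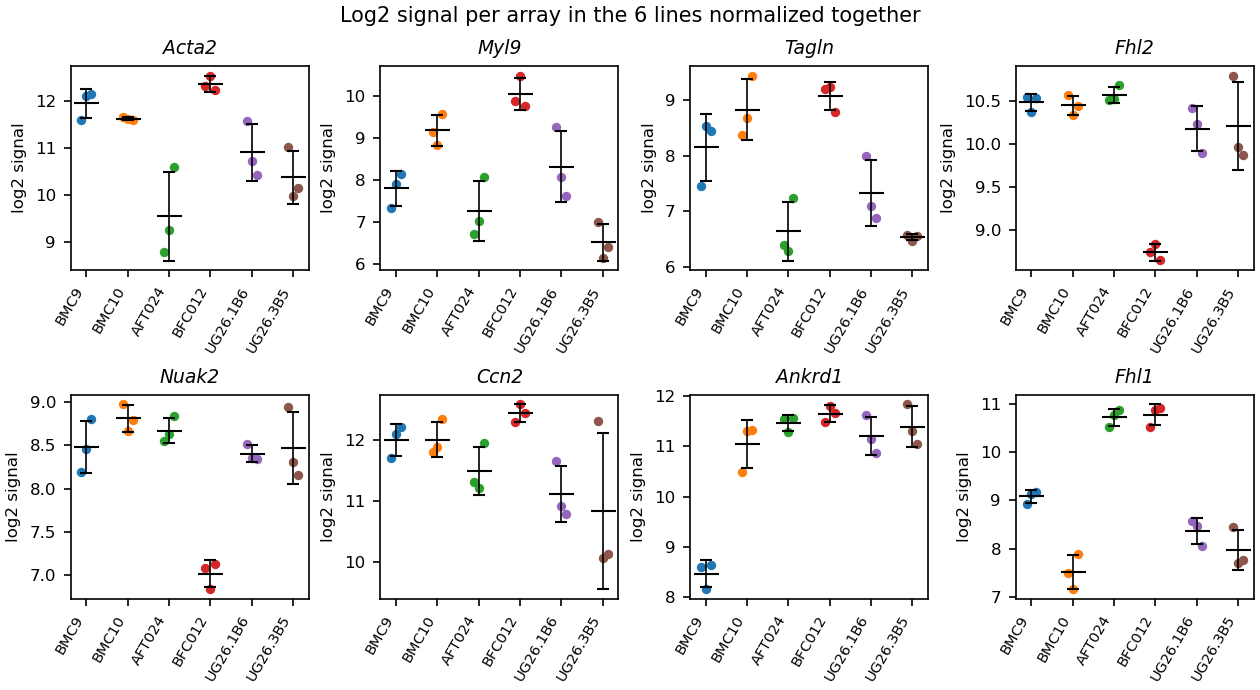
Log2 signal of 8 genes in each array of the 6 lines normalized together (points; black bars give the mean and SD of 3 arrays). AFT024 lies below BFC012 for Acta2, Myl9, Tagln and Ccn2 and above it for Fhl2 and Nuak2, and BMC9 has the lowest Ankrd1 of the 6 lines.

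Over all 36 members 20 were lower in 2012 than in AFT011. Of the 14 genes lower in confluent AFT024, 10 were among them (71.4% of the 14 and 50% of the 20). These were Cald1, Ccn2, Cnn1, Lats2, Pdlim5, Smtn, Tagln, Tpm1, Vcl and Zyx. Fhl2 was higher in both supportive FL lines. Flna and Tagln2 were higher in AFT024 but lower in 2012. The FL comparisons share no arrays. Whether the overlap of 10 exceeds the share over all members was not tested. In OP9, 8 of the 14 genes and 15 of the 20 were higher than in BFC, while 0 of the 14 and 1 of the 20 were lower. Over all 36 members 21 were higher in OP9 and 2 were lower. Whether these overlaps depart from that share was not tested either.

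In sorted stroma grown without KLS cells, 7 of 36 genes were lower in AFT024 than in BFC012 and 1 was higher (3.81% of all genes lower, 3.51% higher, 7.32% either). Each of the 7 was also lower in confluent culture (Acta2, Lats2, Myl9, Smtn, Srf, Vcl and Zyx; 50% of the 14), and Fhl2 was higher in both. Acta2 measured 7.0, 7.20 and 7.45 in AFT024, against 9.70, 8.78 and 8.88 in BFC012. Myl9 measured 6.55, 6.67 and 6.79 in AFT024, against 8.83, 7.78 and 7.36 in BFC012. Fhl2 measured 7.83, 8.51 and 8.45 in AFT024, against 6.74, 6.88 and 7.15 in BFC012. Replicate 1 of BFC012 was the highest of its group for Acta2 and Myl9, and no gene of the 3 overlapped.

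The differences were -1.91 ± 0.49 (adjusted p = 0.0401), -1.32 ± 0.32 (adjusted p = 0.0302) and 1.34 ± 0.20 (adjusted p = 0.00248). Deviations of same-numbered arrays of these groups correlated at 0.466 to 0.671, and the highest correlation between differently numbered arrays was 0.501. With the replicate number as a block 5 members were higher and 7 lower. The count over all genes went up too, to 3152 of 19938 with the block, against 1459 without it. The count of 7 fell to 2 or 3 without any one replicate of AFT024 or without replicate 2 or 3 of BFC012, and the call of Acta2 was lost without any one array of either line (adjusted p up to 0.11). The call of Myl9 was lost without any one replicate of AFT024 or without replicate 2 of BFC012 (adjusted p = 0.0643 to 0.0884) and with only these arrays in the fit (0.104). The call of Smtn was lost without any one array of either line (adjusted p up to 0.156) and with the trended, robust eBayes (0.0699).

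Mesothelial markers differed in the sorted cells as well. Without KLS cells 5 of 8 were lower in AFT024, led by Upk1b (-3.76) and Upk3b (-2.5), with a mean level of 5.53 to 5.65 in AFT024 and 6.53 to 6.65 in BFC012. With KLS cells 3 of 8 were lower and 1 higher (5.43 to 5.77 in AFT024, 6.14 to 6.56 in BFC012). Of 8 stromal fibroblast markers 2 were lower and 1 higher with KLS cells, led by Dcn (-4.64). The mean level of the fibroblast list was 6.86 to 7.07 in AFT024 and 7.6 to 7.84 in BFC012. Its median deviation from the mean of the sorted groups did not follow, at 0.054 in AFT024 and 0.001 in BFC012. Their part in the members' differences was not tested.

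With KLS cells in the culture, 7 genes were higher in AFT024 than in BFC012 and 4 were lower (6.09% of all genes higher, 5.52% lower, 11.6% either). Myl9 measured 6.41, 6.20 and 6.35 in AFT024, against 9.51, 9.03 and 8.59 in BFC012 (difference -2.73, adjusted p = 0.000352). Fhl2 measured 8.19, 8.72 and 8.33 in AFT024, against 6.47, 6.86 and 6.76 in BFC012 (1.72, adjusted p = 0.000342). Neither gene overlapped. Smtn (-0.75), Zyx (-0.59) and Lats2 (-0.48) were also lower, as they were without KLS cells.

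The secreted YAP targets Ccn1 and Ccn2 were higher in AFT024 in this co-culture. Ccn1 measured 10.46, 10.63 and 10.18 in AFT024, against 8.84, 9.13 and 8.82 in BFC012, a difference of 1.49 ± 0.16 (adjusted p = 0.000225). Ccn2 measured 8.23, 8.71 and 8.32 in AFT024, against 7.59, 7.68 and 7.47 in BFC012, a difference of 0.84 ± 0.14 (adjusted p = 0.00241). For Ccn2 this is the reverse of the confluent lines, where AFT024 had the lower level. Acta2 measured 9.31, 7.41 and 7.07 in AFT024, against 9.69, 9.02 and 8.75 in BFC012; replicate 1 of AFT024 lay among the BFC012 arrays, and the gene did not pass (-1.22, adjusted p = 0.15). Myh9 (0.83), Des (desmin, 0.75), Csrp1 (0.69) and Fhl1 (0.85) were higher too, and the call of Fhl1 was lost when any 1 of 5 of these 6 arrays was left out. The call of Myh9, the member with several probe sets, was lost with their mean in place of the brightest one (adjusted p = 0.064).

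Within each line the co-culture moved few of the 36 genes. In AFT024, Ccn2 measured 8.23, 8.71 and 8.32 with KLS cells, against 7.49, 7.35 and 7.29 without. It was the 1 member that passed in that line (1.04 ± 0.14, adjusted p = 0.00916; 0.296% of all genes were higher, 0.0552% lower and 0.351% either). The call was lost without replicate 3 of the AFT024 cultures without KLS cells (adjusted p = 0.0581) and with only these arrays in the fit (0.166).

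In BFC012, Smtn, the actin-associated smoothelin, measured 8.34, 8.12 and 7.94 with KLS cells, against 7.37, 7.28 and 7.30 without (0.82 ± 0.13, adjusted p = 0.0167). Ccn1 measured 8.84, 9.13 and 8.82 with KLS cells, against 9.49, 9.97 and 10.13 without (-0.93 ± 0.16, adjusted p = 0.0248). The groups did not overlap in either gene, and over all genes 0.612% were higher, 0.271% lower and 0.883% either. Smtn and Ccn1 were lost without replicate 2 or 3 of BFC012 without KLS cells and without replicate 1 or 2 of BFC012 with them, and Ccn1 also without replicate 3 of BFC012 with KLS cells (adjusted p up to 0.0769 for Smtn and 0.122 for Ccn1). With only these arrays in the fit Ccn1 no longer passed (0.0979).

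The response to KLS cells was not shown to differ between the lines for any member. In limma's test of the difference 0 of 36 passed (0.0401% of all genes did, 0.01% higher and 0.0301% lower), and at an unadjusted p under 0.05 there were 6 higher and 1 lower. Without replicate 1 of BFC012 without KLS cells 1 was higher and 1 lower, and without replicate 1 of AFT024 with KLS cells 1 was higher. Ccn2 was at 1.10 (adjusted p = 0.102) and Ccn1 at 1.08 (adjusted p = 0.179). Of 9 hematopoietic markers 0 passed in either line with KLS cells (0 higher and 1 lower at an unadjusted p under 0.05 in AFT024, 1 and 0 in BFC012), and Ptprc, the gene of CD45, was at 0.10 in AFT024 and 0.04 in BFC012. Proliferation markers had a mean level of 9.26 to 9.31 in BFC012 with KLS cells, against 8.25 to 9.54 without.

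**Figure D5:**
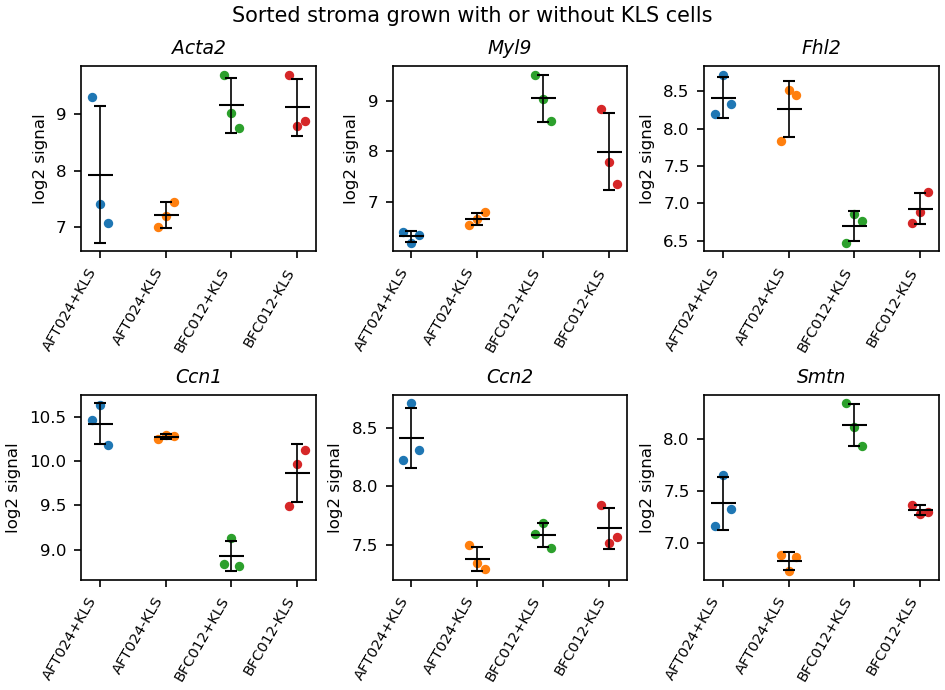
Log2 signal of 6 genes in each array of sorted AFT024 and BFC012 stroma with (+KLS) or without (-KLS) co-cultured KLS cells (points; black bars give the mean and SD of 3 arrays). Myl9 is lower and Fhl2 higher in AFT024 under both conditions, and Ccn2 is highest in AFT024 with KLS cells.

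In the BM pair BMC9 and BMC10, 5 of 36 genes were higher in BMC9 and 5 were lower (7.28% of all genes higher, 8.18% lower, 15.5% either). Ankrd1 measured 8.60, 8.15 and 8.64 in BMC9, against 10.49, 11.30 and 11.34 in BMC10. Fhl1 measured 8.93, 9.14 and 9.18 in BMC9, against 7.51, 7.17 and 7.89 in BMC10. Myl9 measured 7.33, 7.91 and 8.14 in BMC9, against 9.13, 8.84 and 9.56 in BMC10. No array of one line overlapped the other in these genes.

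The differences were -2.58 ± 0.18 (adjusted p = 2.42e-13) for Ankrd1, 1.56 ± 0.23 (adjusted p = 4.67e-06) for Fhl1 and -1.39 ± 0.31 (adjusted p = 0.00143) for Myl9. Des (0.56), Mylk (0.43), Cnn1 (0.42) and Smtn (0.27) were higher, and Pdlim7 (-0.31), Pdlim5 (-0.28) and Axl (-0.26) were lower. The calls of Des and Cnn1 were lost when single arrays were left out and after quantile normalization (adjusted p = 0.06 and 0.054). Deviations of same-numbered arrays correlated at 0.116 to 0.435 in this pair, and the highest correlation between differently numbered arrays was 0.194. With the replicate number as a block 4 members were higher and 3 lower (2115 of all genes called with the block, 3082 without it). The counts ran over 2 to 4 higher and 2 to 8 lower when single arrays were left out. The higher count was 3 without any one replicate of BMC9 or without replicate 2 of BMC10, and 2 without replicate 1 of BMC10. The lower count was 2 without replicate 1 and 8 without replicate 3 of BMC9, and 3 without replicate 1 or 3 of BMC10.

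In this pair 2 of 8 pericyte markers were higher (mean level 7.68 to 7.87 in BMC9, 7.15 to 7.44 in BMC10), led by Anpep (1.76). Of 8 mesothelial markers 2 were lower (6.70 to 6.80 in BMC9, 7.09 to 7.19 in BMC10), led by Msln (-2.86), and of 8 stromal fibroblast markers 4 were higher and 1 lower, with overlapping mean levels (9.39 to 9.69 in BMC9, 8.92 to 9.45 in BMC10). Their part in the result was not tested.

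The AGM pair UG26.1B6 and UG26.3B5 differed least of the confluent pairs, with 4 genes higher and 2 lower in UG26.1B6 (4.34% of all genes higher, 4.22% lower, 8.56% either). Myl9 measured 9.25, 8.05 and 7.62 in UG26.1B6, against 6.99, 6.14 and 6.40 in UG26.3B5. Replicate 1 was the highest array of both lines, and the lines did not overlap (1.80 ± 0.31, adjusted p = 0.000106). Actg2 (0.53), Cnn1 (0.45) and Vcl (0.35) were the other genes that rose, and Smtn (-0.32) and Tagln2 (-0.30) fell. With the paired replicate block 6 were higher and 2 lower (2217 of all genes called with the block, 1707 without it), and the call of Tagln2 was lost (adjusted p = 0.0511). The calls of Actg2, Cnn1, Smtn and Tagln2 each depended on single arrays, and with only the arrays of this pair in the fit Myl9 (adjusted p = 0.0503), Cnn1 (0.0533), Smtn (0.146) and Tagln2 (0.167) no longer passed. The higher count was 2 without replicate 1 of UG26.1B6 and 2 without replicate 3 of UG26.3B5, and the lower count was 0 without replicate 2 of UG26.1B6 and 1 without replicate 1 of UG26.3B5. Ccn2 spread widely in UG26.3B5, at 12.31, 10.06 and 10.12, against 11.64, 10.91 and 10.78 in UG26.1B6, and did not pass (0.28, adjusted p = 0.682).

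The pair differences themselves were compared among these 6 lines, in limma tests added after the data were seen. The FL pair differed from the AGM pair in 5 members higher and 14 lower (13.2% of all genes higher, 10.9% lower, 24% either). It differed from the BM pair in 7 higher and 12 lower (14% higher, 11.5% lower, 25.5% either). The BM pair differed from the AGM pair in 3 higher and 5 lower (6.16% higher, 6.49% lower, 12.6% either). The genes with the largest such differences were Myl9, Acta2, Tagln, Ankrd1 and Nuak2.

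With the line as the unit, tissue and support gave no call among the 36 genes. Bone marrow (BMC) minus AGM (UG26) lines had 0 of 36 past limma's threshold (0.617% of all genes), with 6 higher and 2 lower at an unadjusted p under 0.05. Bone marrow minus FL lines had 0 of 36 (0.105%), with 6 and 1 unadjusted, and FL minus AGM lines had 0 of 36 (0.858%), with 4 and 4 unadjusted. Supportive minus less or non-supportive lines, over 12 lines with terms for tissue and normalization set, had 0 of 36 (0% of all genes), with 0 higher and 1 lower unadjusted. Acta2 was at -0.66 there, Tagln at -1.36, Ankrd1 at -1.11 and Ccn2 at -0.28, with adjusted p from 0.895 to 0.952.

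The order of the lines differed from gene to gene. For Acta2 in the set of 18 arrays, BFC012 (12.37), BMC9 (11.96) and BMC10 (11.63) came first without differing from their neighbours, UG26.1B6 (10.91) and UG26.3B5 (10.38) followed, likewise without differing, and AFT024 (9.54) was lowest. For Ankrd1 in that set 5 lines lay between 11.04 and 11.65 with no difference between neighbours, and BMC9 lay apart at 8.46. In the set of 15 arrays, Acta2 was at 13.36 in AM30-3F4, 13.31 in AFT011, 12.82 in 2012 and 12.64 in 14F1-1, none differing from the next, and AM14-1C4 was lower at 11.83. Ccn2 was highest in AM30-3F4 (13.51), 14F1-1 (13.06) and AFT011 (12.65), whose neighbours did not differ, with 2012 (11.41) and AM14-1C4 (11.06) below.

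Across the 13 line means, centred within normalization sets, the genes most like Acta2 were Tagln (Pearson's r = 0.774), Pdlim5 (0.772), Ccn2 (0.73), Zyx (0.728) and Myh11 (0.724). Myh11 varied little, and its line means spanned 0.126 in the set of 18 arrays (moderated F test, adjusted p = 0.396). In the set of 15 arrays they spanned 0.135 (adjusted p = 0.338), so its r rests on small differences that did not pass. The genes most like Ccn2 were Cnn2 (0.865), Srf (0.846), Actg2 (0.823), Pdlim5 (0.81) and Csrp1 (0.808). Ankrd1 was at -0.311 with Acta2 and -0.454 with Ccn2, the lowest of the members in each case. Over pairs of genes within a role group the median r was 0.584 for the adhesion genes, 0.435 for the filament genes and 0.169 for the YAP targets. These correlations describe 13 lines, of which those of a set were normalized together, and are given with no test.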

How the data were processed

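Total RNA, 100 ng per array per the labels' protocols, was hybridised to Affymetrix arrays (mouse gene 1.0 ST). The deposited values are log2 signals per probe set. The submitters' processing notes name RMA and Partek, with no version or setting in the sources at hand. Quantiles matched only within 4 sets of arrays, so levels were compared within sets. Probe sets naming 1 symbol were kept, with the highest-mean one per gene (19938 genes) and no filter on low signal. Differences came from limma 3.58.1 in R 4.3.3 (lmFit, contrasts and eBayes), in 1 fit of 39 confluent and 1 of 12 sorted arrays. Tests were two-sided, with Benjamini-Hochberg adjustment over all genes and a threshold of 0.05. Tissue was tested on the means of the 6 lines of the set of 18 arrays, so with no term for the set. Support was tested on the means of 12 lines, with terms for tissue and set. The SE is pooled over a fit. With 3 arrays a group, their number limits precision, and methods were tested on simulated data.

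Named genes were Acta2, Tagln, Cnn1, Actg2, Myl9, Ccn1, Ccn2, Ankrd1, Srf and Myocd where described, per comparison up to 6 members with the largest differences among those past the threshold without overlap, and of each other list up to 3 with the largest differences past the threshold; others were chosen after their values were seen. The members, lists and tests were chosen with earlier results of these data known. Of the other lists Rock2, Stk3, Actg1 and Ccnb1 were not measured, and some lists share genes (Pdgfrb; Acta1 and Actc1).

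Replicate numbers were taken to pair arrays where each of the 3 correlations of deviations between same-numbered arrays exceeded 0.1, as was found for UG26.1B6 with UG26.3B5 (0.535, 0.327 and 0.468), BMC9 with BMC10 (0.323, 0.116 and 0.435) and sorted AFT024 with BFC012 without KLS cells (0.671, 0.517 and 0.466). The highest correlation between differently numbered arrays was 0.103, 0.194 and 0.501 in these pairs. In the BMC and the sorted pair it exceeded the lowest same-numbered value, so the pairing there is uncertain. Alternatives were only the compared arrays, a replicate block, quantile normalization, no dim genes, the mean of a gene's probe sets, eBayes with trend, and leaving out each replicate. Promoter windows were RefSeq's (GRCm38.p6), and a stretch inside a gene's span was shortened to 30 bases. Python 3.11.15 with matplotlib 3.10.9 made the plots.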

Additional observations from a re-analysis of the deposited data

Results flagged for a closer look

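Differences between pairs of lines were compared with each other among the 6 lines normalized together, in limma tests added after the data were seen. They were listed because the difference between the supportive line and its partner was not the same in 2 pairs. Each tissue had 1 pair of clones here, so tissue and clone cannot be told apart. The partners also differed in label, with BFC012 non-supportive and UG26.3B5 and BMC10 less supportive. The FL pair (AFT024 minus BFC012) differed from the AGM pair (UG26.1B6 minus UG26.3B5) in 5 members higher and 14 lower (24% of all genes either way). Myl9 was at -4.58 in that test, Acta2 at -3.37 and Tagln at -3.23, since each was lower in AFT024 than in BFC012 and Myl9 was higher in UG26.1B6 than in UG26.3B5.

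The FL pair differed from the BM pair (BMC9 minus BMC10) in 7 members higher and 12 lower (25.5% of all genes). Acta2 was at -3.16, Ankrd1 at 2.39 and Nuak2 at 1.98. The BM pair differed from the AGM pair in 3 members higher and 5 lower (12.6% of all genes), with Myl9 at -3.18, Ankrd1 at -2.40 and Tagln at -1.47; without replicate 1 of UG26.3B5 the count of lower members was 11. The 3 tests share pairs. The cause of these differences was not tested.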

How the results depend on the processing

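Of 759 alternatives for 62 differences of named members, 689 kept the side of the threshold and 70 lost it. None changed direction, but these members had been chosen as past the threshold with arrays that did not overlap. Leaving out an array, or fitting only the compared arrays, could therefore not reverse them. Counts that moved by more than 1.5 times are given here as members higher or lower. With only the compared arrays in the fit, UG26.1B6 minus UG26.3B5 had 1 higher and 0 lower, AFT024 minus BFC012 (confluent) 3 higher, BMC9 minus BMC10 3 higher and 2 lower, 14F1-1 minus 2012 11 lower, 2012 minus the AM lines 9 higher, sorted AFT024 minus BFC012 without KLS cells 2 higher and 4 lower, the AFT024 response to KLS cells 0 higher, the BFC012 response 0 lower, the FL minus AGM pair 3 higher and 8 lower, the FL minus BM pair 4 higher, and the BM minus AGM pair 3 lower. With a replicate block, confluent AFT024 minus BFC012 had 3 higher, BMC9 minus BMC10 3 lower, 2012 minus AFT011 2 higher, 2012 minus the AM lines 9 higher, sorted AFT024 minus BFC012 without KLS cells 5 higher, the AFT024 response 0 higher (Ccn2, adjusted p = 0.342), the BFC012 response 0 higher and 0 lower, and the FL minus AGM pair 3 higher and 9 lower; of the paired designs the block ended the call of Tagln2 (adjusted p = 0.0511) alone among these 62 differences. Quantile normalization gave BMC9 minus BMC10 3 higher and 3 lower, 2012 minus AFT011 2 higher and the BFC012 response 2 lower, and dropping dim genes gave BMC9 minus BMC10 3 higher. With arrays as units, which counts the arrays of a line as independent, BMC minus UG26 lines had 9 higher and 4 lower, BMC minus FL lines 10 and 2, FL minus UG26 lines 4 and 6, and support 3 lower; eBayes with trend gave BMC minus UG26 lines 1 higher.

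Leaving out single arrays gave, as higher and lower, 2 to 6 and 0 to 3 for UG26.1B6 minus UG26.3B5, 4 to 5 and 13 to 15 for confluent AFT024 minus BFC012, 2 to 4 and 2 to 8 for BMC9 minus BMC10, 21 to 22 and 2 for OP9 minus BFC, 2 to 4 and 17 to 19 for 2012 minus AFT011, 11 to 13 and 6 to 7 for 14F1-1 minus 2012, 1 and 27 to 30 for AM14-1C4 minus AM30-3F4, 4 to 6 and 12 to 14 for 2012 minus the AM lines, 1 to 2 and 2 to 5 for sorted cells without KLS cells, 6 to 7 and 3 to 5 with them, 0 to 1 and 0 for the AFT024 response, 0 to 2 and 0 to 1 for the BFC012 response, 0 to 1 and 0 to 1 for the difference of responses, 4 to 5 and 11 to 15, 5 to 8 and 9 to 12, and 2 to 4 and 4 to 11 for the pair differences in the order above. Leaving out single lines left support at 0 and 0. The cause of these changes was not tested beyond the fewer arrays of the smaller fits. Levels near the array's floor, as for Myocd, limit what can be seen there.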
